A study of Mus musculus with 48 samples.

Results

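This account is about a comparison inside a single feeding regimen: inguinal subcutaneous white adipose tissue (sWAT) of mice on the TAN regimen, in the 4 libraries that the count table labels 12 PM against the 4 that it labels 8 AM. These 8 libraries were chosen by the column names of the table, which match the sample titles, out of 48 libraries in the series (2 diets, 6 times of day, 4 libraries each). TAN stands for twice-a-night feeding. C57BL/6 mice by the labels (C57BL/6J in the paper), male by the study's methods and 8 months old by the labels, had food from 9 p.m. to 11 p.m. and from 5 a.m. to 7 a.m. for 6 months, in a dark phase from 8 p.m. to 8 a.m., and the ad-lib control mice of the same strain, sex and age had food at all times. By the paper, the food of both groups was regular chow, and TAN mice on it ate modestly less than their ad-lib controls. Neither group carried a transgene or a drug. The labels reuse the same replicate numbers at every time, and the paper took tissue from killed mice, so each library was taken as a different animal. The series calls the material a stromal vascular fraction in its design text and iWAT in its labels, while the paper describes whole sWAT, and the adipocyte genes Adipoq, Plin1, Cidec and Lipe were among the 8 adipocyte markers, which summed to 21943.7 to 33999.9 CPM (counts scaled to library size after TMM normalization) in the 8 libraries.

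The time of these libraries has 2 readings. By the count table, the 8 AM libraries were taken 1 h after the second meal had ended, at the start of the light phase, and the 12 PM libraries 5 h after it, so that the comparison covers the first hours of a daytime fast. The paper also lists expression values per library in supplementary tables. Over the 979 genes compared, each of the 8 libraries had the values that the table gives to the library of the same diet and number 12 h apart. This held for 8 of 8, and for 0 of 8 under the same time. Each differed from its match by at most 1.29e-06 and from the next closest library by at least 0.169 (log2 scale, absolute values averaged over genes). Read that way, the libraries labelled 8 AM were taken at 8 p.m., when the lights went off and 1 h before the first meal, 13 h after the previous one, and those labelled 12 PM were taken at 12 a.m., 1 h after the first meal had ended. The names 8 AM and 12 PM below are those of the count table. The libraries on each side of the comparison are the same under either reading.

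As background, the molecular clock of peripheral tissues is a loop in which CLOCK or NPAS2 with ARNTL (BMAL1) drives E-box genes, among them the Per and Cry genes, whose proteins repress that activity, and Nr1d1 and Nr1d2 (REV-ERB alpha and beta), whose proteins repress Arntl, Nfil3 and Npas2 in competition with the ROR activators. Output factors follow: DBP, TEF and HLF activate D-box genes, and NFIL3 represses them. In adipose tissue the timing of meals acts on this loop and on insulin-driven lipogenesis.

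Of 19977 genes tested with edgeR over all 48 libraries, 2 passed an adjusted p under 0.05 with an absolute log2 fold change above 1, and both were clock repressors. Cry1 fell and Nr1d2 rose from 8 AM to 12 PM. This is 0.00501% of the genes tested in each direction, while 160 higher and 46 lower genes past that fold change had a p under 0.05 before adjustment. The median log2 fold change of all genes tested was 0.02. The 4 and 4 libraries did not overlap for 648 genes that were higher at 12 PM (3.24% of those tested) and for 628 that were lower (3.14%), and these shares are the background for the counts of members below.

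Cry1, which encodes a repressor of CLOCK and ARNTL (chromosome 10, 85131700 to 85185064, GRCm38), was at 41.8, 40.7, 48.7 and 38.4 CPM in the 8 AM libraries and at 14.5, 12.0, 12.2 and 12.5 CPM in the 12 PM libraries. The means were 42.4 ± 4.42 and 12.8 ± 1.15 CPM (SD, n = 4 each), and the highest library at 12 PM lay far under the lowest at 8 AM. The fitted log2 fold change was -1.73 ± 0.26 (SE; edgeR, Benjamini-Hochberg adjusted p = 0.00137), 3.31-fold lower. The call held when any of the 8 libraries was left out, with an adjusted p of 0.0029 to 0.0217.

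Nr1d2, the gene of REV-ERB beta (chromosome 14, 18204054 to 18239127), was at 33.4, 38.4, 45.4 and 40.6 CPM at 8 AM and at 108.3, 117.9, 128.3 and 125.7 CPM at 12 PM. The means were 39.4 ± 4.98 and 120.1 ± 8.98 CPM, and no library of either time came near the other group. The log2 fold change was 1.61 ± 0.29 (edgeR, adjusted p = 0.0245), 3.05-fold higher. Without any 1 of the 8 libraries the call was lost in the fit of 48 libraries, at an adjusted p of 0.0578 to 0.243 with a log2 fold change of 1.54 to 1.68. In fits of the 24 TAN libraries, an alternative added after the data were seen, 1 gene was called higher and 1 lower without any 1 of the 8.

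The promoters of both called genes are shown here because they passed the test, and that of Per3 because it holds a pair of D-boxes. The sequences are from RefSeq (GRCm38.p6, the strand of the gene, 250 bases before to 50 after the start, 5′ to 3′), with matches to the E-box CACGTG or the D-box TTATGNAA, searched on both strands, in capitals. They lie at chr10:85185005-85185304 (minus strand) for Cry1, chr14:18239057-18239356 (minus strand) for Nr1d2 and chr4:151044616-151044915 (minus strand) for Per3.
Cry1: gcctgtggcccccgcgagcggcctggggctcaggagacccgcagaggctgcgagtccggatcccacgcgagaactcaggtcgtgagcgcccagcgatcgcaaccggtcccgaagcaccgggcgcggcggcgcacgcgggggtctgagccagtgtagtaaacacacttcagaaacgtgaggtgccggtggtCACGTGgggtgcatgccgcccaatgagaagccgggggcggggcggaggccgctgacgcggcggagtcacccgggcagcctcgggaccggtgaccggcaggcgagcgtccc
Nr1d2: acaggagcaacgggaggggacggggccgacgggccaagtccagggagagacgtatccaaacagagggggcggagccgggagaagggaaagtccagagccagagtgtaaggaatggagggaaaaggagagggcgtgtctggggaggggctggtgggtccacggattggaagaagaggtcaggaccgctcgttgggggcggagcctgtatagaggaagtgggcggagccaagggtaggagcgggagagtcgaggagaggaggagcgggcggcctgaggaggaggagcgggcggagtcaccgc
Per3: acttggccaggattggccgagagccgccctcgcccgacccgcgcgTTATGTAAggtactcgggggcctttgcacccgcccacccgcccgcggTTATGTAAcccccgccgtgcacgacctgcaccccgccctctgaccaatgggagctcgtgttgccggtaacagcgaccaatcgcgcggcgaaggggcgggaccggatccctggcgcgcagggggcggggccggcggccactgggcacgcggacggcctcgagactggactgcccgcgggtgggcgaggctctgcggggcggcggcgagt
The E-box of Cry1 starts 60 bases before the transcription start, and the D-boxes of Per3 start 205 and 158 bases before it. No match lies in the window of Nr1d2, which says only that these letters are not in it. Of the 19 clock genes, 16 had a promoter in the table, of which 5 held the E-box (Bhlhe41, Ciart, Cry1, Per1 and Tef) and 2 the D-box (Per1 and Per3). Of all 32851 promoters, 7.15% held the E-box and 3.38% the D-box. These shares count promoters and the list counts are of genes, so they are not in the same unit.

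Of the 19 core clock and clock output genes, all of which were tested, 6 were higher in every 12 PM library than in every 8 AM library and 5 were lower in every one, against 3.24% and 3.14% of all genes. Of them, Nr1d2 and Cry1 passed edgeR's test in the fit of 48 libraries, DESeq2 over the same libraries also called Nr1d1 and Dbp higher and Nfil3 lower (adjusted p = 0.00027, 0.0338 and 0.0264), and the median log2 fold change of the list was -0.20. In edgeR's fit of the 8 TAN libraries alone, where the spread is taken from these 2 groups, 6 clock genes passed: Nr1d2, Nr1d1 and Dbp were higher, and Cry1, Arntl and Nfil3 lower. At any fold change, 20 of the 16225 genes tested in that fit were higher (0.123%) and 28 lower (0.173%).

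**Figure D1:**
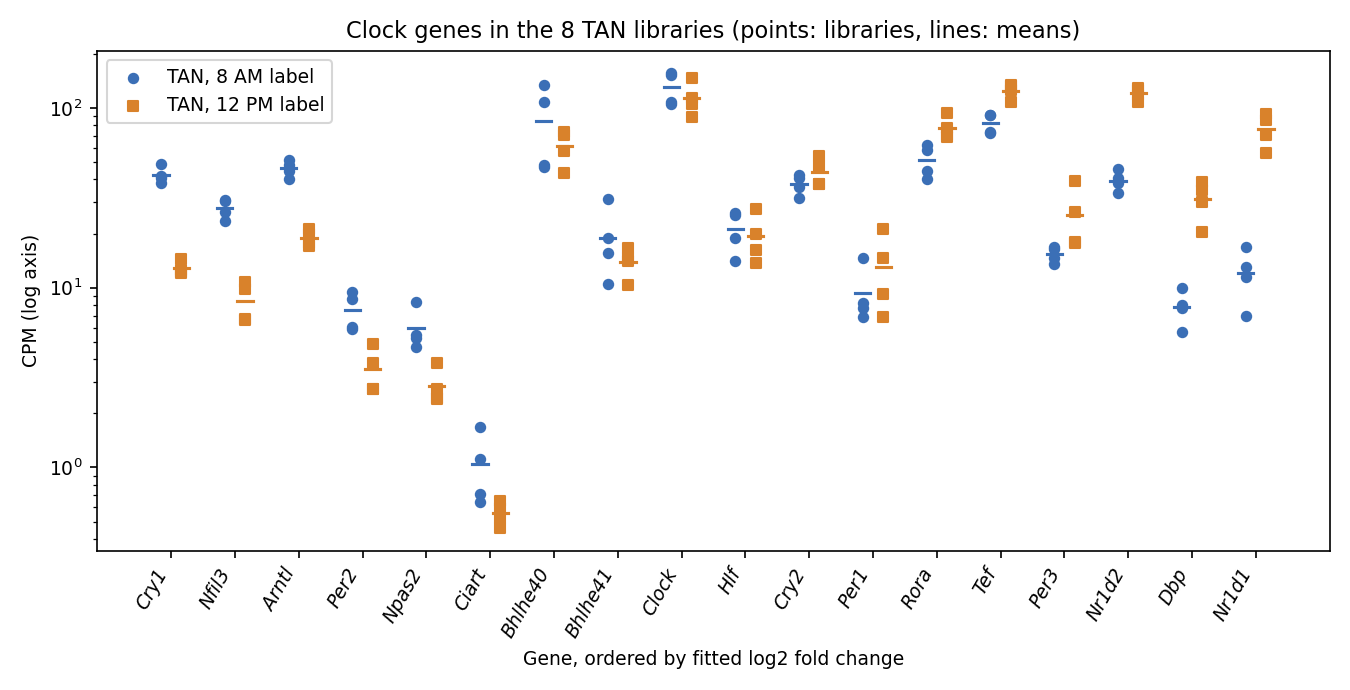
CPM (log axis) of 18 clock and clock output genes in the 4 TAN libraries labelled 8 AM (circles) and the 4 labelled 12 PM (squares), with the mean of each group as a line, ordered by fitted log2 fold change. Cry1, Nfil3 and Arntl stand at one end and Nr1d2, Dbp and Nr1d1 at the other with no overlap of the groups, while Clock, Hlf, Cry2 and Per1 overlap.

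Nr1d1, the gene of REV-ERB alpha, was at 6.96, 13.1, 11.4 and 16.8 CPM at 8 AM and at 56.2, 70.2, 92.0 and 85.4 CPM at 12 PM. Its lowest 12 PM library was far above its highest 8 AM library. The log2 fold change of 2.65 ± 0.55 was the highest of the list but missed the threshold in the fit of 48 libraries (edgeR, adjusted p = 0.103), and it passed in the fit of the 8 libraries (adjusted p = 0.00038). Dbp, the D-box activator, stood at 8.03, 5.69, 7.73 and 9.96 CPM and then at 20.4, 30.1, 38.8 and 35.0 CPM, with the groups apart. Its log2 fold change was 1.98 ± 0.51 (adjusted p = 0.508 over 48 libraries and 0.00145 over the 8, both edgeR).

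Arntl, Nfil3 and Npas2, named above as genes that the REV-ERB proteins repress, had negative log2 fold changes. Whether those proteins acted on them here was not tested. Arntl was at 44.5, 47.8, 51.2 and 40.4 CPM at 8 AM and at 19.8, 17.7, 21.3 and 17.1 CPM at 12 PM. All 4 later libraries were lower, with a log2 fold change of -1.28 ± 0.36 (edgeR, adjusted p = 0.831 over 48 libraries and 0.000878 over the 8). Nfil3, which encodes the repressor at D-boxes, was at 30.9, 23.6, 30.4 and 26.3 CPM and then at 10.7, 6.71, 6.59 and 9.80 CPM. The groups did not overlap, and the log2 fold change was -1.72 ± 0.43 (adjusted p = 0.478 and 0.00125). Npas2, the partner of ARNTL that can stand in for CLOCK, was low throughout, at 4.66 to 8.32 CPM at 8 AM and 2.39 to 3.79 CPM at 12 PM, and its log2 fold change of -1.07 ± 0.81 passed in neither fit.

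The period genes were not uniform. Per2 was at 8.65, 5.91, 9.47 and 6.08 CPM at 8 AM and at 2.72, 2.74, 4.84 and 3.82 CPM at 12 PM, without overlap (log2 fold change -1.09 ± 0.59). Per3 was at 13.5 to 16.9 CPM and then at 17.8 to 39.4 CPM, higher in all 4 later libraries by a log2 fold change of 0.73 ± 0.54. Per1 ranged from 6.91 to 14.7 CPM and from 6.89 to 21.1 CPM, with overlap. None of the 3 passed in the fit of 48 libraries (edgeR, unadjusted p of 0.0724, 0.185 and 0.36).

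Among the remaining members, Tef, an activator at D-boxes, was at 72.7 to 91.6 CPM at 8 AM and 107.5 to 133.2 CPM at 12 PM, and Rora, which activates Arntl, at 40.2 to 62.5 and 69.2 to 93.0 CPM, both without overlap. Clock (104.9 to 155.2 and 89.3 to 145.6 CPM), Cry2 (31.5 to 42.2 and 37.9 to 53.7 CPM) and Hlf (14.1 to 26.1 and 13.7 to 27.4 CPM) overlapped between the times. So did Ciart and the clock repressors Bhlhe40 and Bhlhe41 (46.9 to 134.5 and 43.6 to 73.3 CPM for Bhlhe40). Unlike Dbp and Tef, the other D-box activators, Hlf had a log2 fold change of -0.13 ± 0.41.

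Over all 6 labelled times the comparison joins the lowest TAN means of several of these genes to points on their way up. Nr1d2 had its lowest TAN mean at 8 AM (39.4 CPM) and its highest at 4 PM (250.1 CPM), and in ad-lib mice the lowest and highest means carried the same labels (49.1 and 215.8 CPM). Dbp, Tef and Per3 likewise had their lowest mean at 8 AM and their highest at 4 PM in both diets, with 7.85 and 153.9 CPM for Dbp in TAN. Arntl had its highest mean at 8 AM in both diets (46.0 CPM in TAN and 32.3 CPM in ad-lib) and its lowest at 4 PM. Cry1 was highest at 12 AM in both diets (48.1 and 36.7 CPM). Under the times of those supplementary tables each of these labels moves by 12 h, so that the highest means of Nr1d2 and Dbp would fall at 4 a.m. As background, Nr1d1 and Dbp messages are known to be highest in the light phase in peripheral tissues of mice that feed at night.

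**Figure D2:**
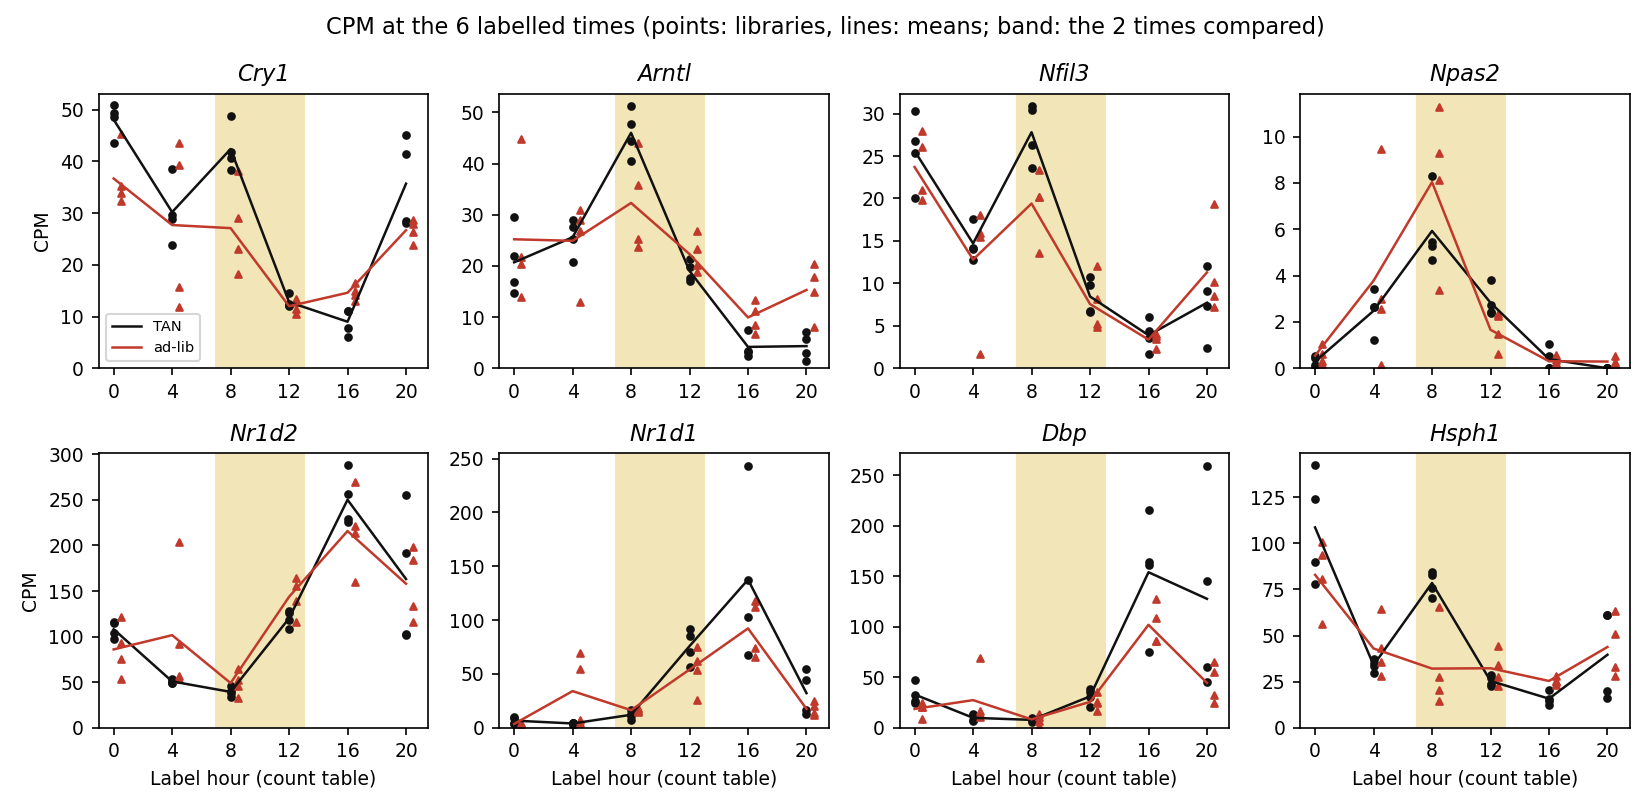
CPM of 7 clock genes and of Hsph1 at the 6 times of the count-table labels, with the 4 libraries of each diet as points (TAN circles, ad-lib triangles set slightly to the right), their means as lines, and a band over the 2 times compared. The TAN means of Cry1, Arntl and Nfil3 drop across the band and those of Nr1d2, Nr1d1 and Dbp climb to a top at the label 4 PM, and the means of Hsph1 are 78.5 and 25.4 CPM in TAN and 32.1 and 32.3 CPM in ad-lib, where the 4 libraries at 8 AM span 14.7 to 65.4 CPM.

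The ad-lib mice give the values of these genes at the same labels without timed meals. Their libraries differed widely in make-up. Summed B lymphocyte markers ran from 10.7 to 1572.0 CPM in ad-lib at 8 AM and from 4.55 to 1426.4 CPM at 12 PM. Summed adipocyte markers ran from 17786.1 to 62145.0 CPM and from 21765.8 to 50299.7 CPM. The part of this spread in the ad-lib values and in the difference between the diets was not tested. In ad-lib, 1 gene rose (Nr1d2, log2 fold change 1.55, edgeR adjusted p = 0.0453) and 1 fell (Gm28661, -2.35, adjusted p = 0.00828), again 0.00501% in each direction. The libraries did not overlap for 1.33% of genes that were higher and 0.806% that were lower. Of the 19 clock genes, 4 were higher and 3 lower without overlap in ad-lib, where Cry1 had a log2 fold change of -1.17, Nr1d1 1.72, Dbp 1.61, Arntl -0.53 and Nfil3 -1.36. The test of the difference between the diets called no clock gene, with a difference of 0.06 for Nr1d2 (edgeR, unadjusted p = 0.885) and -0.56 for Cry1 (unadjusted p = 0.134). Per2 had log2 fold changes of -1.09 in TAN and 0.38 in ad-lib, a difference of -1.46 (unadjusted p = 0.0858).

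Over all genes that test called 0 genes in either direction, 0.0% of those tested, while before adjustment (p under 0.05, past that fold change) 299 differences were more positive and 125 more negative in TAN, DESeq2 called 6 and 4, and limma voom 0 and 0. By the lowest p, the 4 named protein-coding genes with a more negative time difference in TAN were Kpna4, which encodes a nuclear import receptor, Heatr3, a factor for import of ribosomal proteins, Hccs, holocytochrome c synthase, and Hspa5, the chaperone BiP of the endoplasmic reticulum. Heatr3 was at 44.2, 52.2, 49.8 and 38.1 CPM at 8 AM and at 25.4, 23.6, 29.3 and 30.7 CPM at 12 PM in TAN, all lower, with log2 fold changes of -0.76 in TAN and 0.15 in ad-lib. The 4 with a more positive difference were Flcn, which encodes the nutrient sensor folliculin (0.32 in TAN and -0.49 in ad-lib), Pskh1, a kinase, Ctrl and Zfp775. Pskh1 and Ctrl are neighbours on opposite strands of chromosome 8, with ends facing each other, and strand use in the counting is not given in the sources used here. Ctrl was at 0.107 to 1.31 CPM in the 8 TAN libraries. The adjusted p of all 8 was 0.91 (edgeR).

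Of 17 genes for cytosolic chaperones, their partners and cold-inducible RNA-binding proteins, 7 were lower in every 12 PM library (Hsph1, Hspa8, Dnaja1, Dnajb1, Chordc1, Ahsa1 and Stip1) and 1 was higher (Cirbp), against 3.14% and 3.24% of all genes. The median log2 fold change of the list was -0.22. No member passed edgeR's test in the fit of 48 libraries, where 5 were lower and 1 higher at an unadjusted p under 0.05 and any fold change. In the edgeR fit of the 8 libraries at any fold change, 3 passed as lower (Hsph1, Dnaja1 and Chordc1) and 1 as higher (Cirbp). Of all genes tested in that fit, 0.173% were lower and 0.123% higher. DESeq2 called Hsph1 and, at any fold change, Chordc1.

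Hsph1, which encodes the HSP110 exchange factor of HSP70 (chromosome 5, 149614287 to 149636376), was at 83.0, 84.3, 70.5 and 76.0 CPM at 8 AM and at 27.2, 28.4, 23.8 and 22.5 CPM at 12 PM. The libraries within each time were close to each other and the groups far apart. Its log2 fold change was -1.63 ± 0.35 (edgeR, adjusted p = 0.164 over 48 libraries and 5.58e-05 over the 8). In ad-lib, where the 8 AM libraries were at 27.8, 65.4, 20.7 and 14.7 CPM, the log2 fold change was 0.005, and the difference between the diets, -1.63, had an unadjusted p of 0.00193 (adjusted p = 0.91).

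Hspa8, the constitutive HSC70 and by far the most counted chaperone here, was at 1984.1, 2196.2, 1913.1 and 1744.0 CPM and then at 1481.5, 1112.5, 875.9 and 1009.7 CPM (log2 fold change -0.81 ± 0.28, unadjusted p = 0.00605). Dnaja1, a J-domain partner of HSP70, was at 301.5, 336.3, 294.2 and 240.5 CPM and then at 146.2, 185.7, 140.9 and 191.1 CPM (-0.82 ± 0.21). Chordc1, an HSP90 co-chaperone, was at 131.0, 136.7, 104.8 and 111.5 CPM and then at 73.6, 76.9, 56.7 and 74.2 CPM (-0.78 ± 0.18). For all 3 genes the TAN libraries of each time were apart, and the log2 fold changes in ad-lib were 0.29, 0.07 and 0.09. The mitochondrial chaperonin genes Hspd1 and Hspe1 had log2 fold changes of 0.016 and 0.025, and the stress-inducible Hspa1a and Hspa1b were under 3 CPM in all 8 libraries.

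Cirbp, the cold-inducible RNA-binding protein, went the other way, at 56.8, 51.3, 47.2 and 64.3 CPM at 8 AM and at 126.4, 118.5, 112.2 and 72.1 CPM at 12 PM. The fourth 12 PM library was only slightly above the highest 8 AM library, and the log2 fold change was 0.97 ± 0.27 (edgeR, adjusted p = 0.727 over 48 libraries and 0.0402 over the 8). Rbm3, the other cold-inducible member, overlapped (191.9 to 223.2 and 198.8 to 291.3 CPM). In TAN, Cirbp had its highest mean at the label 8 PM and its lowest at 12 AM, where Hsph1 and Hspa8 had their highest means.

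Of the 24 genes of the unfolded protein and integrated stress response, which serve folding in the endoplasmic reticulum and the amino acid response, 9 were lower in every 12 PM library (Hspa5, Calr, Pdia4, Atf4, Herpud1, Manf, Hyou1, Ddit3 and Creld2) and 0 were higher. Of all genes tested, 3.14% were lower and 3.24% higher in this way. The median log2 fold change was -0.24, with 21 negative values and 3 positive, beside a median of 0.14 in ad-lib, where 0 were lower and 2 higher without overlap. No member passed edgeR's test, and 4 were lower and 0 higher at an unadjusted p under 0.05 and any fold change. For these counts before adjustment, too, the share of all genes is not given here. Hspa5 was at 579.7, 743.5, 642.3 and 563.7 CPM at 8 AM and at 411.0, 449.6, 398.1 and 488.2 CPM at 12 PM, with the groups apart. Its log2 fold change was -0.53 ± 0.18 in TAN and 0.49 ± 0.18 in ad-lib, and the difference of -1.02 had an unadjusted p of 0.000233. Atf4, the transcription factor of the integrated stress response, was at 213.4, 221.9, 178.6 and 147.4 CPM and then at 115.1, 123.8, 95.0 and 124.8 CPM (-0.73 ± 0.21, unadjusted p = 0.00104). Its target Ddit3 (CHOP) was at 24.3 to 34.7 CPM and then at 18.6 to 23.2 CPM, while other targets, Asns, Trib3 and Chac1, overlapped.

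Ribosome biogenesis, the making of ribosomal RNA and its assembly in the nucleolus, had the lowest median of the 31 lists, -0.40 on the log2 scale, with 19 of 20 members negative. In all, 8 members were lower in every 12 PM library (Nop56, Nop58, Ncl, Nolc1, Dkc1, Nop2, Heatr1 and Ddx21) and 0 were higher, against 3.14% and 3.24% of all genes. Nolc1, a nucleolar chaperone of small nucleolar RNPs, was at 30.9, 31.8, 30.4 and 33.5 CPM at 8 AM and at 18.4, 15.5, 23.8 and 14.6 CPM at 12 PM, a log2 fold change of -0.81 ± 0.35. Heatr1, needed for ribosomal RNA transcription, was at 46.8, 54.2, 47.2 and 57.4 CPM and then at 26.3, 24.3, 40.0 and 25.9 CPM, where the third 12 PM library lay closest to the earlier ones. Nop58, a box C/D protein, was at 51.7 to 59.3 CPM and then at 31.1 to 43.4 CPM. In edgeR's fit of 48 libraries 0 members passed, with 2 lower at an unadjusted p under 0.05 and any fold change (Nolc1 and Nop58, p of 0.0254 and 0.0403). That count before adjustment again has no share of all genes beside it. In ad-lib the median was -0.07 and no member was without overlap in either direction.

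**Figure D3:**
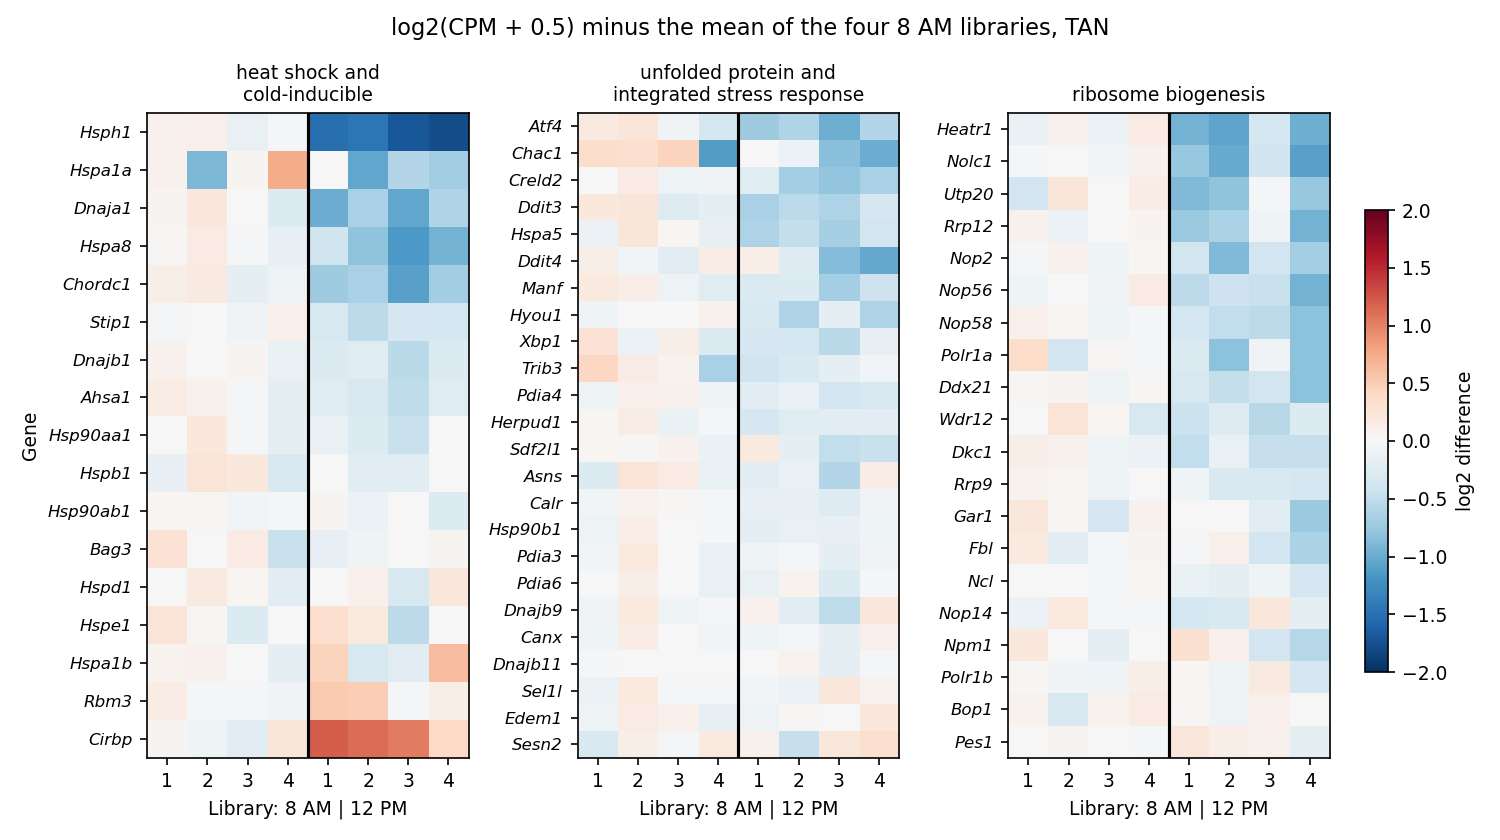
log2(CPM + 0.5) of each member of 3 lists in the 8 TAN libraries, minus the mean of the 4 libraries labelled 8 AM, with genes in rows ordered by fitted log2 fold change and libraries 1 to 4 of each time in columns. Blue is lower and red higher than the 8 AM mean, and the 12 PM columns are blue for 7 of 17 heat shock genes, 9 of 24 stress response genes and 8 of 20 ribosome biogenesis genes without overlap, and red for Cirbp. Of all genes tested, 3.14% were lower and 3.24% higher without overlap.

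The 15 genes of de novo lipogenesis, which make fatty acids from sugar after a meal, had a median log2 fold change of 0.33 in TAN and -0.33 in ad-lib, and 0 passed. Fasn, fatty acid synthase, was at 2382, 2308, 2423 and 4091 CPM at 8 AM and at 3749, 2895, 2897 and 4462 CPM at 12 PM, with overlap (0.32 ± 0.53). Elovl6, the elongase, was at 352.5 to 498.3 and 442.3 to 1510 CPM, and Slc2a5, the fructose transporter, at 24.6 to 30.1 and 18.9 to 73.7 CPM. In these genes, Acly and Me1 the third 12 PM library was the lowest or next to the lowest of its group and the fourth the highest. Scd1, a desaturase, was higher in all 4 later libraries (means of 20269 and 32120 CPM, log2 fold change 0.66), and Mid1ip1, an activator of acetyl-CoA carboxylase, was lower in all 4 (142.4 and 64.2 CPM, -1.15).

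Of 23 genes of cholesterol synthesis and uptake, 4 were lower without overlap (Cyp51 and Msmo1 among them) and 0 higher, against 3.14% and 3.24% of all genes. The list median was -0.12. Cyp51, an enzyme of sterol synthesis, had means of 99.3 CPM at 8 AM and 65.8 CPM at 12 PM (log2 fold change -0.59, edgeR unadjusted p = 0.0116), and its ad-lib value was 0.41. Insig1, which holds SREBP back, overlapped between the times with means of 698.2 and 435.9 CPM, and none of the 12 SREBP and LXR regulators was without overlap.

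The 20 metabolic elasticity genes, a list that the study took as already defined and examined in these samples, had a median of 0.12 with 0 called. Angptl8, an insulin-induced inhibitor of lipoprotein lipase, was the only 1 without overlap, at 297.3, 242.8, 96.8 and 94.9 CPM at 8 AM and at 29.8, 30.5, 11.7 and 72.3 CPM at 12 PM. The spread within each time was wide, and the log2 fold change of -2.34 ± 0.89 did not pass (edgeR, adjusted p = 1, unadjusted p = 0.0122). Lep, which encodes leptin, was at 919.5, 1138, 1292 and 494.4 CPM and then at 202.8, 470.8, 703.2 and 685.9 CPM, with overlap (-0.90 ± 0.62). Ppp1r3b, a glycogen targeting subunit, was at 182.0 to 320.7 and 37.6 to 246.1 CPM, and Mvd, of the mevalonate pathway, at 18.6 to 26.6 and 10.3 to 19.9 CPM. Thrsp, Pnpla3, Scd2, Dgat2, Sorl1 and Slc25a35 had log2 fold changes between -0.14 and 0.13. Of the other members, Acss2 (0.79), Zim1 (1.08), Peg3 (0.63), Depp1 (0.56) and Trabd2b (-0.33) overlapped too.

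Ppara, the fatty acid sensor of fasting, was low and higher in all 4 later libraries (means of 3.48 and 9.66 CPM, log2 fold change 1.47), and it passed in the edgeR fit of the 8 libraries (adjusted p = 0.0477) but not over 48. G0s2, the inhibitor of adipose triglyceride lipase, was lower in all 4 (521.2 and 192.0 CPM, -1.44), as was the lactate receptor gene Hcar1 (95.5 and 57.7 CPM, -0.73), and Lipe, hormone-sensitive lipase, was higher in all 4 (557.3 and 848.7 CPM, 0.61). Txnip, a brake on glucose uptake, was higher in all 4 (592.9 and 1042 CPM, 0.81). Cdkn1a, the p21 cell cycle inhibitor counted among the glucocorticoid targets, was lower (51.4 and 27.5 CPM, -0.90) and passed over the 8 libraries (adjusted p = 0.0137), and Tsc22d3 was lower in all 4 (138.2 and 96.0 CPM). Without overlap, fatty acid oxidation had 1 of 25 members higher and 1 lower, and lipolysis 1 of 19 higher and 2 lower. The ChREBP targets had 1 of 11 higher and 0 lower, and the glucocorticoid targets 0 of 12 higher and 2 lower. Of all genes tested, 3.24% were higher and 3.14% lower in this way.

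Outside the clock list, the 30 lists held 489 distinct genes tested, of which edgeR called 0 over 48 libraries. At any fold change, 7 higher and 25 lower genes had p under 0.05 before adjustment. The counts before adjustment over all genes above also needed the fold change, so they are no background for these. At any fold change, DESeq2 called 3 of the 489 (Trim63, Hsph1 and Chordc1) and edgeR 8 in the fit of the 8 libraries. Over all genes, DESeq2 called 21 higher and 9 lower of 19977, and that edgeR fit 20 and 28 of 16225. Trim63 had 0 counts in all 4 libraries at 8 AM. Without overlap, 16 of the 489 were higher and 39 lower, beside 3.24% and 3.14% of all genes tested. The higher genes were thus near the share over all genes. All 32 nuclear respiratory chain genes (median 0.27, 0.05 to 0.36), all 16 collagen and matrix genes (median 0.22) and 20 of 21 genes of the TCA cycle and shuttles (median 0.23) had a positive log2 fold change, but in none of these lists was any gene without overlap. Pcx, pyruvate carboxylase, with means of 713.7 and 1136 CPM, had the lowest p of the TCA list (edgeR, unadjusted p = 0.111). Fatty acid oxidation had a median of 0.20, glycolysis 0.22 (Pfkm, phosphofructokinase, higher in all 4), glycogen 0.32 (Epm2a higher), the pentose phosphate pathway 0.18 (Rpia lower), branched-chain amino acid catabolism 0.17 and autophagy 0.15 (Gabarapl1 higher).

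The remaining lists had medians between -0.26 and 0.29. Without overlap, 3.24% of all genes tested were higher and 3.14% lower. Triglyceride synthesis (-0.02, 16 tested) had Lpin3 and Pck1 higher without overlap, and fatty acid uptake (0.09, 11 tested) Angptl8 lower. Lipolysis had a median of 0.06 with the 3 genes above. Insulin receptor and FoxO targets (0.09, 19 tested) had Klf15 and Trim63 higher and Sesn3 lower. NAD salvage (0.09, 15 tested) had Nmnat3 and Naprt higher, and adipogenic factors (0.04, 12 tested) Cebpa and Klf15 higher. Type 2 immunity (0.27, 10 of 15 tested) had Il1rl1 higher, beige and thermogenic genes (0.29, 14 tested) Dio2 lower, and proliferation (-0.26, 16 tested) Mcm2 lower. Ucp1 stayed under 3 CPM in all 8 libraries. Immediate early genes (0.10), adipokines (0.14), ChREBP targets (-0.01 with Txnip), glucocorticoid targets (0.25), SREBP and LXR regulators (-0.04) and mitochondrially encoded genes (-0.06) held no further gene without overlap. Trim63, a muscle ubiquitin ligase, had 0 counts in all 4 libraries at 8 AM and 196, 9, 2 and 12 counts at 12 PM. In the same order, the summed skeletal muscle markers of those 12 PM libraries were 1804.7, 371.5, 29.1 and 204.9 CPM. Whether the Trim63 counts came from muscle was not tested.

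**Figure D4:**
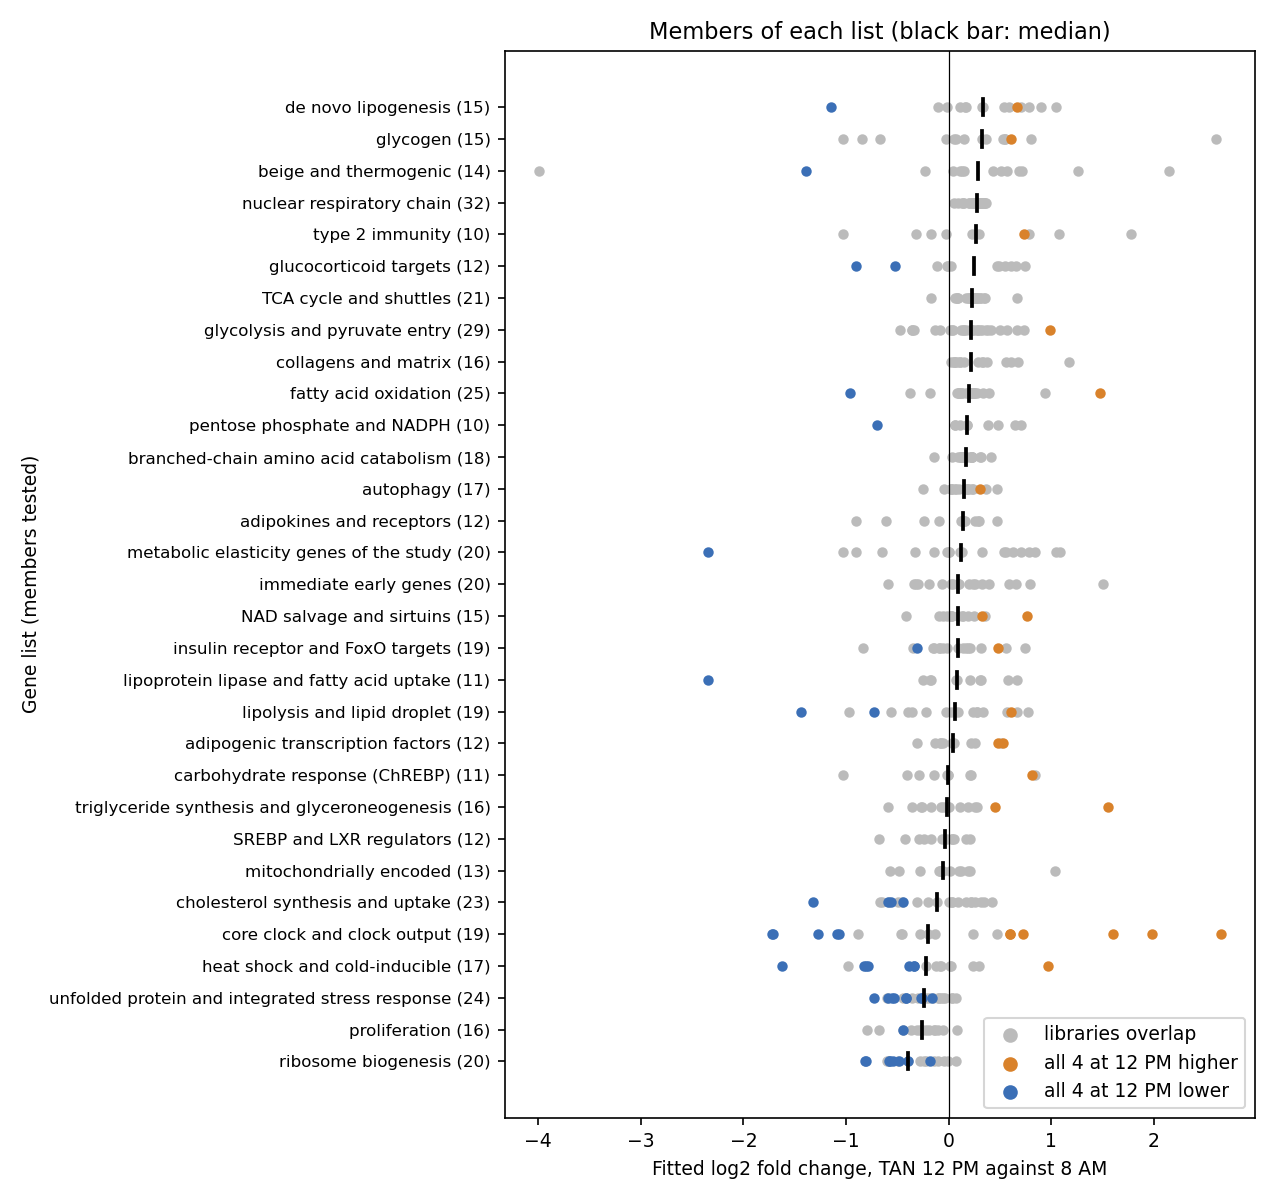
Fitted log2 fold change (TAN 12 PM against 8 AM) of each tested member of 31 gene lists, ordered by list median (black bar), with members whose 4 and 4 libraries do not overlap in orange (higher at 12 PM) or blue (lower). Trim63, at 0 counts in all 8 AM libraries, is left out. The blue points gather in the lists of ribosome biogenesis, stress response and heat shock, and the clock list has points of both colours.

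**Figure D5:**
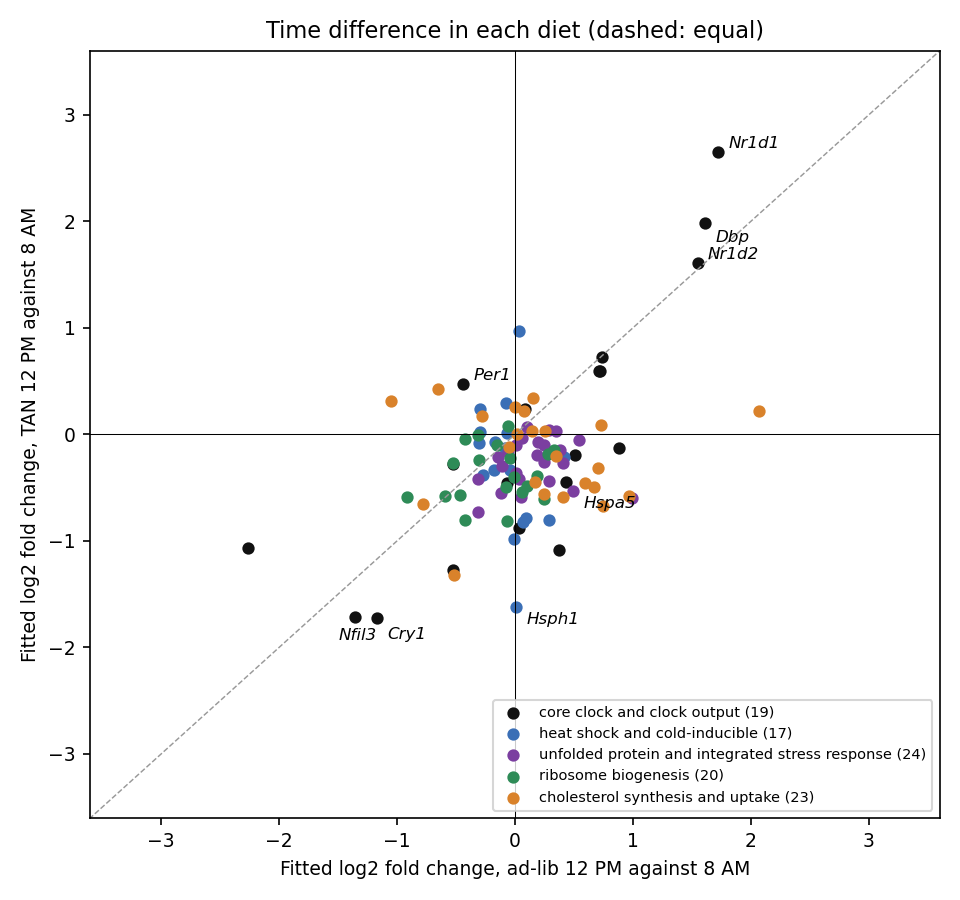
Fitted log2 fold change from 8 AM to 12 PM in TAN (vertical axis) against that in ad-lib (horizontal axis) for the members of 5 lists, where points on the dashed line are equal in both diets. Nr1d2, Nr1d1, Dbp, Cry1 and Nfil3 lie in the corners where both diets have the same sign, while Hsph1 is near 0 in ad-lib and Hspa5 has opposite signs.

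Some genes outside the lists were picked after their values were seen, by the lowest p among protein-coding genes without overlap: Ssc4d, Ap5s1, Klhl24 and Etfbkmt were higher in all 4 libraries at 12 PM, and Noct, Apex2 and Mettl16 lower. Noct, nocturnin, a phosphatase of NADP(H) with a known daily rhythm, was at 38.0, 46.0, 31.7 and 33.6 CPM and then at 17.4, 13.8, 12.0 and 15.9 CPM (log2 fold change -1.34 ± 0.31, edgeR adjusted p = 0.311 over 48 libraries and 0.00321 over the 8). Mettl16, an RNA methyltransferase, was at 52.0 to 57.1 CPM and then at 28.3 to 36.1 CPM (-0.73 ± 0.19). Klhl24, a ubiquitin ligase adaptor, was at 116.4 to 173.3 CPM and then at 241.5 to 251.6 CPM (0.71 ± 0.19), with a log2 fold change of 0.59 in ad-lib. None of these 7 passed edgeR's test over 48 libraries, while DESeq2 over the same libraries called Ssc4d higher (adjusted p = 0.0165) and Noct and Apex2 lower (0.0165 and 0.0216).

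Total counts were 15685080 to 18443146 in the 8 AM libraries and 17079789 to 24962579 in the 12 PM libraries (two-sided exact permutation test, 4 against 4, p = 0.0571, where 0.0286 is the smallest possible). The share of mitochondrially encoded genes was 4.75% to 7.02% and 5.71% to 6.98% (exact p = 0.857). Among summed markers of other cell types, skeletal muscle differed most, with 21.4 to 130.0 CPM at 8 AM and 1804.7, 371.5, 29.1 and 204.9 CPM at 12 PM (exact p = 0.0857). All 10 muscle markers had a positive log2 fold change and none was without overlap. B lymphocyte markers summed to 868.8 to 1254.8 and 419.8 to 987.4 CPM (exact permutation p = 0.143) and T lymphocyte markers to 388.8 to 776.6 and 205.5 to 495.9 CPM (p = 0.2), with all 7 and all 8 log2 fold changes negative, and stroma markers to 915.4 to 2047 and 1614 to 2444 CPM (p = 0.0857). Adipocyte (p = 0.171), endothelium (0.114), macrophage (0.371), neutrophil (1), mammary epithelium (0.429, at most 8.31 CPM in sum), erythrocyte (0.543), keratinocyte (0.0857, at most 10.4 CPM) and Schwann cell markers (0.143) were compared by the same exact permutation test. Over the 15 values compared, hepatocyte markers included, the lowest adjusted p was 0.306. Hepatocyte markers, a list written after values were seen, summed to 1136.4 to 1788.2 and 1244.3 to 2859.5 CPM (exact permutation test, p = 0.429). All 10 had a positive log2 fold change, with a median of 2.537 beside 3.725 in ad-lib. Alb and Fgb were higher without overlap, as were 3.24% of all genes tested. The liver gene Ambp had 0 counts in all 4 libraries at 8 AM and 26, 0, 13 and 36 at 12 PM. In bulk tissue, fewer cells of a type and less RNA per cell cannot be told apart, and the part of these shifts in the gene values above was not tested.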

How the data were processed

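Libraries were made from inguinal white adipose tissue by bulk RNA-seq of poly-A RNA. The authors deposited raw counts per gene for 48 libraries (54532 genes listed, GRCm38 coordinates), which were used as deposited. The submitters' processing notes name TopHat 1.3.3, DESeq2 1.20.0, limma and edgeR and the builds mm9, mm10 and GRCm38, with no role, and whether counting used strand is not given in the sources used here. A second deposited table holds FPKM that the authors averaged per diet and time, which was not used.

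Genes were filtered with filterByExpr at a minimum count of 10 (19977 of 33438 genes with a count were kept), scaled by TMM and tested with edgeR 4.0.16 in R 4.3.3 by a quasi-likelihood fit over 12 groups of 4 libraries, with Benjamini-Hochberg adjustment over all genes tested. Genes were called at an adjusted p below 0.05 where the log2 fold change also exceeded 1 in size. The same fit gave the ad-lib comparison and the difference between the diets. The smaller fit used the 8 TAN libraries alone. CPM are counts scaled to the TMM-normalized library size. A gene was said not to overlap where all 4 libraries of one time were above all 4 of the other. Summed values per library were compared by a two-sided exact permutation test over 70 splits. Alternatives were DESeq2 1.42.0, limma 3.58.1 voom, RLE factors, other filters, a replicate block, other sets of libraries and leaving out each library. The code was tested on simulated data with known changes.

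The comparison, its members and the gene lists were chosen with earlier results of these data known, and the hepatocyte list and the fits named as added were chosen after the values were seen. Genes were named by rule: called genes with the largest fold changes, up to 4 called members of a list or the 2 with the lowest p where none was called, all clock and metabolic elasticity genes, and the 4 of each sign with the lowest p for the difference between the diets. Further genes without overlap are named in the text as picked after their values were seen. Labels number the libraries of each group, each taken as a different animal, so p-values measure the spread between these animals only. No library pair held identical counts. Some items withheld for evaluation are counted in their lists but are not reported here by name.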

Additional observations from a re-analysis of the deposited data

Results flagged for a closer look

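Of 90 groups of 4 libraries checked, 6 held a library whose gap to its nearest neighbour passed Dixon's critical value, where chance gives about 1 in 20 groups. Summed skeletal muscle markers in the fourth TAN library at 8 AM (130.0 CPM) were far above the other 3 of that time. Summed macrophage markers were highest in the first TAN library at 12 PM (1796.6 CPM), erythrocyte markers in the fourth at 12 PM (955.4 CPM) and neutrophil markers in the third at 8 AM (64.6 CPM). Among named genes, Per1, a period gene, stood apart in the fourth library at 8 AM (14.7 CPM), and Chordc1, the HSP90 co-chaperone, in the third at 12 PM (56.7 CPM, the lowest of the 8 libraries). The part of these libraries in the gene values was not tested beyond leaving each out in turn.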

How the results depend on the processing

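The counts of 1 gene higher and 1 lower in TAN were the same with limma voom, RLE factors, no filter, a stricter filter, any fold change, the 24 TAN libraries and without mitochondrially encoded genes. DESeq2 called 21 and 7, where 16 of the 21 had at most 3 counts in each 8 AM library. The liver gene Ambp and the muscle gene Trim63 were among these 16. The 8 TAN libraries alone gave 15 and 11 (20 and 28 at any fold change, added after the data were seen), and an unadjusted p under 0.05 gave 160 and 46. Leaving out 1 library gave 0 to 0 higher and 1 to 1 lower over 48 libraries, and 1 to 1 for both over 24 (added). For the difference between the diets, DESeq2 called 6 and 4, and an unadjusted p 299 and 125, with 0 to 0 without 1 library. In ad-lib, DESeq2 called 8 and 9, an unadjusted p 260 and 365, no filter 0 higher, and leaving out 1 library gave 0 to 1 higher and 0 to 2 lower. With the replicate number as a block the counts were 1 and 1. Residuals of libraries with the same number correlated at 0.438, -0.0967, 0.16 and -0.481 in TAN over 5000 genes, and no library correlated best with its own number, so the numbers were not treated as pairs.

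Of 2193 values of 130 named genes under alternatives, 2141 kept direction and side of the threshold, 8 lost the call (Nr1d2, each without 1 library), 17 gained it and 27 in 10 genes changed sign, where the cause was not tested. Camp (-0.39) was 0.84 with the replicate block. Dgat2 (0.006) was -0.008 with voom, -0.041 with the block, -0.027 over 24 and -0.016 over 8 libraries. Sorl1 (0.002) was -0.003 with DESeq2 and with RLE factors, -0.027 over 24 and -0.022 over 8 libraries. Without 1 library, log2 fold changes ran from -0.93 to 1.18 for Camp, -0.17 to 0.11 for Dgat2, -0.074 to 0.17 for Sorl1, -0.09 to 1.15 for Ctrl, -0.36 to 0.009 for Hlf, -1.66 to 0.99 for Ngp, -0.11 to 0.26 for Scd2, -0.032 to 0.22 for Slc25a35, -0.18 to 0.25 for Thrsp and -0.82 to 1.38 for mt-Atp6.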

Other observations

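The edgeR fit of the 8 TAN libraries called 48 genes at any fold change, of which 14 are on a list described above, and those named here were picked after their values were seen. Sfpq, a splicing factor of paraspeckles, was at 200.0, 195.5, 181.6 and 187.0 CPM at 8 AM and at 111.0, 113.0, 114.8 and 96.4 CPM at 12 PM (log2 fold change -0.81 ± 0.28, edgeR adjusted p = 0.00709 over the 8 libraries and 1 over 48). Hnrnpm, a splicing regulator, was at 187.0 to 226.2 CPM and then at 115.3 to 137.4 CPM, Tra2a, another, at 98.3 to 117.7 and 59.6 to 76.4 CPM, and Rbm12 at 22.0 to 24.2 and 11.7 to 15.7 CPM. None of these overlapped between the times, which held for all 48 genes called in that fit and adds nothing to the call. The ad-lib log2 fold changes of these 4 genes were 0.17, -0.06, -0.41 and -0.13.

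Osgin1, an oxidative stress response gene, was at 17.4, 18.3, 17.1 and 15.7 CPM at 8 AM and at 5.13, 4.09, 2.48 and 5.0 CPM at 12 PM (log2 fold change -2.03 ± 0.57, edgeR adjusted p = 0.00125 over the 8 libraries and 0.831 over 48), and its ad-lib log2 fold change was -1.43. Loxl1, a crosslinker of elastin, was at 13.3 to 19.9 and 26.2 to 39.4 CPM. Of the 48 genes, 6 of which are on the clock list, 33 had the same sign in ad-lib. The share over all genes tested was not computed, so this count has no background beside it.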
